A study of Rattus norvegicus with 16 samples.

Results

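Genes that answer to interferon or present antigen were followed in the adult liver as a module of 36 listed members among 26913 named features of the array. Members were taken by symbol, each read by its brightest probe, and the list of genes was set with earlier results of these data known. A probe was found for 35 of the 36 (none for Nlrc5), and 31 passed the brightness filter in liver, among 11092 features tested in all. Livers came from male Sprague-Dawley rats aged 78 to 86 days. In group C the dams received corn oil and the litters stayed with their birth mothers, and in group CC control litters were fostered to another dam of the same treatment. In group M the dams received a daily 1.0 mg/kg of mixed organochlorine pesticides, PCBs and methylmercury dissolved in the same oil, and in group MM exposed litters were fostered likewise. Dosing of the dams ran through gestation and lactation until postnatal day 20, so the rats themselves were not dosed as adults. Each group had 8 male pups whose RNA was pooled in pairs, which gave 4 arrays per group and 2 rats per array, and p-values measure the spread between these pools. One label field calls the M arrays a control, while their title and treatment name the mixture, and they were taken as exposed.

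Each array carried liver RNA in Cy5 and a universal reference RNA from 14 rat cell lines in Cy3, with no dye swap. Values are log2 of liver over reference signal, called log ratios, so that 1 unit is a doubling of liver over reference. C and CC were hybridised on slide 1, M and MM on slide 2, and each group had 2 arrays in each of 2 slide rows. Fostering (CC against C, MM against M) was thus compared within a slide, whereas exposure (M against C, MM against CC) cannot be told apart from the slide. The share of probes well above background in the liver channel ran from 35.0% to 41.9%, the number of arrays and this brightness limit the precision, and log ratios of any pair of arrays correlated at 0.941 to 0.985.

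Type I interferons act through a receptor and factors such as Stat2 and Irf9, which bind the interferon-stimulated response element of target genes. The targets include antiviral proteins, RNA sensors, and Irf7, which raises further interferon production, while Usp18 and Isg15 feed back on the pathway. Interferon gamma, in part through Irf1, raises the immunoproteasome and the peptide transporter that supply class I molecules, and, through Ciita, the class II genes. In the liver hepatocytes respond to interferon, whereas class II molecules belong mainly to Kupffer cells, dendritic cells and B cells.

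The 8 listed hepatocyte markers were all bright enough to be tested, and so were the 11 of 12 Kupffer cell and macrophage markers that had a probe. Of dendritic cell markers, 0 of 5 with a probe passed the brightness filter, and Xcr1, Clec9a and Zbtb46 were above it on no array. Of 8 T cell markers 2 were tested, and Cd3e, Cd2, Cd5, Cd4, Cd8a and Cd8b reached the detection level on no array. In bulk liver, fewer cells of a type and less RNA per cell cannot be told apart.

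Most class II genes were brighter in liver than in the cell line reference. The log ratio of Cd74, the invariant chain that guides class II molecules, ran from 3.66 through a median of 4.40 to 4.67 over the 16 arrays. RT1-Bb, a class II beta chain, ran from 2.77 to 3.96, and RT1-Da, a class II alpha chain, from 2.93 to 3.93. The peptide-loading pair RT1-DMa and RT1-DMb lay much nearer the reference, at means of 0.13 and 0.53. RT1-Ba, another class II alpha chain, and Ciita, the class II transactivator, were not well above background on any of the 16 arrays.

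Antiviral genes were also above the reference. The means over 16 arrays were 2.65 for the tetherin gene Bst2, 2.64 for the ubiquitin-like modifier Isg15, 2.08 for the 2'-5'-oligoadenylate synthetase Oas1a and 1.46 for Rsad2 (viperin), whose reference signal was well above background on only 4 arrays. The GTPases Mx1 and Mx2 stood at 1.39 and 1.09 and the ADP-ribosyltransferase Parp14 at 1.97. The RNA sensor Ifih1 and Ifit3 reached the detection level on no array, and Ifit2 reached that level on 3 C, 2 CC, 3 M and 1 MM arrays. Further means were 1.32 for Ifi35, 1.00 for the kinase gene Eif2ak2, 0.94 for Usp18, 0.63 for Dhx58, 0.38 for Ifit2 and 0.026 for the guanylate-binding protein gene Gbp2. Among the transcription factors, the means were 1.13 for Irf7, 1.05 for Stat2, 0.83 for Irf9 and -0.18 for Irf1.

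In the class I group, the light chain gene B2m stood at 1.98, and the peptide transporter subunits lay at 0.034 for Tap1 and -0.56 for Tap2. Tap1 was well above background on 2 C arrays and on 3 of each other group. The immunoproteasome subunits Psmb8, Psmb9 and Psmb10 had means of 0.17, 0.66 and 0.53. The proteasome activator genes Psme1 and Psme2 stood at 0.82 and 0.30 and the loading factor Tapbp at 0.044, and no member was saturated.

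Of the 36 members, 28 had a promoter window in the RefSeq table (GRCr8 build, 300 bases around the gene start). Ciita, Nlrc5, RT1-DMb, Dhx58, Mx2, Isg15, Ifit2 and Usp18 had no window and were not searched. The core of the interferon-stimulated response element, GAAA and GAAA with any 2 bases between them on either strand, occurred in 16 of the 28 windows (57.1%), against 1312 of all 33469 windows (3.92%). The core of the gamma-activated sequence, TTCNNNGAA, occurred in 6 of 28 (21.4%), against 8.87% of all windows. The windows of 6 genes are shown. They are those of Irf7 and of Oas1a and Mx1, which followed Irf7 between pools, the latter without the core. The others are of the members that passed the test in M against C and had a window, which holds the core (Bst2, Psmb8 and Tap1). RT1-DMb also passed that test but had no window. Capitals mark this core or its reverse complement, TTTC and TTTC with any 2 bases between them, and copies may overlap. Sequences run 5′ to 3′ on the gene's strand.

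Irf7, chr1:205799974-205800273, minus strand: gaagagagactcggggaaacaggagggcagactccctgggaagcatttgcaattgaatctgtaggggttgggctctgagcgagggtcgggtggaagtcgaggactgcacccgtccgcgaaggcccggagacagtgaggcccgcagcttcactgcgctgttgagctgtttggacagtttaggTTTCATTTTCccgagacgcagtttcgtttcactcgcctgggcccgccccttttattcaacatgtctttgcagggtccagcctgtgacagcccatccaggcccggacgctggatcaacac
Oas1a, chr12:41330216-41330515, plus strand: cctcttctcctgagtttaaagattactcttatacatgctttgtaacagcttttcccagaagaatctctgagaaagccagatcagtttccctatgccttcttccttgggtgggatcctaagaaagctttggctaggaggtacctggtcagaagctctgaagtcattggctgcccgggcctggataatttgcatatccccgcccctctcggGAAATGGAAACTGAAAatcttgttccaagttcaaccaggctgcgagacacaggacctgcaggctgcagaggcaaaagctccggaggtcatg
Mx1, chr11:50294557-50294856, minus strand: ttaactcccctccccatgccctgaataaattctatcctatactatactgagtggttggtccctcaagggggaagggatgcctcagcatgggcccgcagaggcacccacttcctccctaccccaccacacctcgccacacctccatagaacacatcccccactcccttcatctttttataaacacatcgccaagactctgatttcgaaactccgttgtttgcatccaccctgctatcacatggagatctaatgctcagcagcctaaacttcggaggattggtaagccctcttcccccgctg
Bst2, chr16:18254918-18255217, minus strand: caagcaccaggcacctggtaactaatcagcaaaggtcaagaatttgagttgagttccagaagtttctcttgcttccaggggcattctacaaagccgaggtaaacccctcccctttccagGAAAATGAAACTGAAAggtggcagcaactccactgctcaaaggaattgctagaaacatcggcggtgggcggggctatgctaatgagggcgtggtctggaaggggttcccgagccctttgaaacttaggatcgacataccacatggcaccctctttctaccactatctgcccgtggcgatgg
Psmb8, chr20:4656982-4657281, minus strand: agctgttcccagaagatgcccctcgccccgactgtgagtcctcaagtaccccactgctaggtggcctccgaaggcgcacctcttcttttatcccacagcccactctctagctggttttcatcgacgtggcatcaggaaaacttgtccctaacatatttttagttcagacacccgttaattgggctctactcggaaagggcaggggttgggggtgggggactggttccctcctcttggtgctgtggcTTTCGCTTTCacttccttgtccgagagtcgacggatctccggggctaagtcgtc
Tap1, chr20:4668494-4668793, minus strand: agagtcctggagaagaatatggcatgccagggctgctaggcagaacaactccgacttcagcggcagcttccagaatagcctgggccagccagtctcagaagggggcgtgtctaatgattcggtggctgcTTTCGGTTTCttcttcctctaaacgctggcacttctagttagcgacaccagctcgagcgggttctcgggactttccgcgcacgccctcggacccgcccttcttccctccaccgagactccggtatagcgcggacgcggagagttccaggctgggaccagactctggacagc

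The element core began 69 bases before the gene start in Irf7 and 121 bases before it in Tap1. Oas1a held 2 overlapping copies, 41 and 35 bases before the start, and Bst2 held 2 overlapping copies, 131 and 125 bases before it. The Psmb8 window held 1 copy, 4 bases before the start, while the Mx1, Stat2 and Irf1 windows held none. By chromosome, 10 of the members lie on chromosome 20. There the RefSeq order of protein-coding genes runs Tap2, Psmb8, Tap1, Psmb9, RT1-DMb and RT1-DMa with no other such gene between them. A motif match describes the letters of the window and was not tested for binding.

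**Figure D1:**
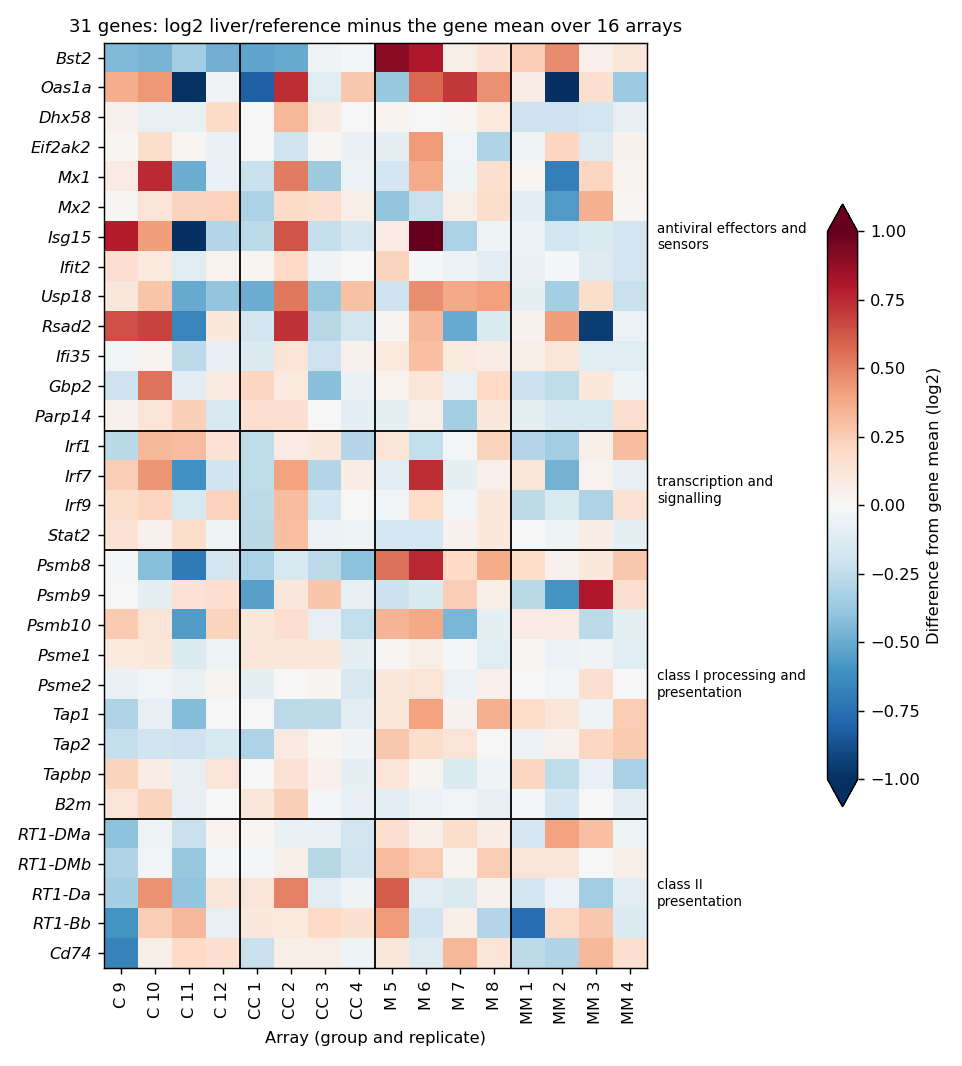
Log ratio of the 31 tested members (rows, by role) on each of the 16 arrays (columns, by group and replicate), as the difference in log2 from the gene's mean over all arrays, with colours ending at 1 and -1. Whole columns stand apart within groups, such as CC replicate 2, which was the highest of its group for 20 of 31 members, and C replicate 11, which was the lowest for 19.

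CC minus C gave the difference with fostering in unexposed rats. No member separated the groups, and values scattered to both sides of 0. Of the 31 members 16 were above 0 and 15 below, with a median of 0.015, where 53.2% of all features were below 0 with a median of -0.0079. A member was called where limma's Benjamini-Hochberg adjusted p over all features was under 0.05. limma called 0 members and 0 of all features (0%), 0 members had an unadjusted p under 0.05 (107 of all features did), and in 0 members were the groups without overlap, as they were in 0.884% of all features. The count below 0 moved to 9 without C replicate 10 and to 21 without C replicate 11 or CC replicate 2. The median was -0.027 within slide row 1 and 0.0036 within row 2.

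The class II genes were all above 0 (5 of 5, median 0.084), from 0.026 for Cd74 to 0.16 for RT1-Bb. This held within slide row 1, from 0.18 for RT1-DMb to 0.28 for RT1-Bb, but not within row 2. There RT1-DMa (-0.037), RT1-DMb (-0.045) and Cd74 (-0.17) were below 0, and RT1-Da (0.056) and RT1-Bb (0.049) above. Cd74 was 3.66 on C replicate 9, against 4.39 to 4.53 on the other C arrays. A second, dimmer RT1-Bb probe, at the detection level on 2 C and 0 CC arrays, gave -0.68. The lowest p belonged to Tap2, at -0.80, -0.76, -0.77 and -0.72 on the C arrays and -0.87, -0.47, -0.54 and -0.60 on the CC arrays. All C values lay within the range of CC, and the difference was 0.14 ± 0.098 (SE, n = 4 per group, limma adjusted p = 1). Irf1, the factor through which interferon gamma acts, stood at -0.22 ± 0.17, and Irf9, the DNA-binding partner of Stat2, at -0.15 ± 0.13. Single pools moved these values by over 1.5 times, Tap2 to 0.22 without CC replicate 1 and 0.089 without CC replicate 2, Irf1 to -0.35 without C replicate 9, and Irf9 to -0.071 without CC replicate 1, -0.26 without CC replicate 2 and -0.24 without C replicate 11.

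The interval of the difference was within 1 log2 unit of 0 for every member tested. The widest was that of Oas1a, from -0.74 to 0.89 (95% interval), and the narrowest among those given was that of Psme2, from -0.19 to 0.14. Beside these values, Kupffer cell markers were above 0 in 9 of 11 (median 0.084), and their summed liver level ran from 13.6 to 14.5 (log2) in C and from 13.8 to 14.4 in CC. Sinusoidal endothelial markers were above 0 in 4 of 4 (median 0.21). The part of these cells in the class II values was not tested.

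MM minus M gave the difference with fostering in exposed rats. Most members lay below 0, and the deviations were larger in antiviral than in class I genes as medians, a contrast that was not tested. Of 31 members 25 were below 0 with a median of -0.11, against 49.4% of all features and a median of 0.0015. limma called 0 members and 0 of all features (0%), and 2 members, Dhx58 and Psmb8, had an unadjusted p under 0.05 (195 of all features, or 1.76%, did). By role, 11 of 13 antiviral genes were below 0 (median -0.18), 3 of 4 transcription and signalling genes (median -0.15), 7 of 9 class I genes (median -0.036) and 4 of 5 class II genes (median -0.13). In the liver channel alone 27 of 31 were below 0 (median -0.11), and in the reference channel 16 of 31 were.

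Dhx58, an RNA sensor of the RIG-I family, stood at 0.66, 0.64, 0.65 and 0.73 in M and at 0.43, 0.43, 0.45 and 0.55 in MM. All MM values were under all M values, and Dhx58 was the 1 member whose groups did not overlap, as in 1.08% of all features. The difference was -0.21 ± 0.087 (SE, n = 4 per group, limma adjusted p = 1), of which -0.20 came from the liver channel and 0.00078 from the reference.

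Psmb8, a catalytic immunoproteasome subunit, stood at 0.73, 0.93, 0.37 and 0.54 in M and at 0.36, 0.22, 0.28 and 0.44 in MM. The groups overlapped, since M replicate 7 lay within the MM range, and the difference was -0.32 ± 0.14 (limma adjusted p = 1). Oas1a stood at 1.70, 2.65, 2.79 and 2.54 in M and at 2.16, 0.99, 2.24 and 1.71 in MM. MM replicate 2 was far below the others, and the difference of -0.64 ± 0.37 became -0.38 without it. The difference was -0.34 for Isg15, -0.25 for Irf7, -0.38 for Usp18 and -0.27 for RT1-Da, with no call. Without M replicate 6 it was -0.058 for Isg15 and -0.048 for Irf7, without MM replicate 2 it was -0.12 for Irf7, and without M replicate 5 it was -0.10 for RT1-Da.

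Within the slide rows, the module's median was -0.23 in row 1, with 28 of 31 members below 0, and -0.0076 in row 2, with 17 of 31 below. Dhx58 differed by -0.22 in row 1 and -0.19 in row 2, and Oas1a by -0.60 and -0.69. Isg15 differed by -0.68 in row 1 and 0.0072 in row 2, and Irf7 by -0.49 and -0.0039. Psmb8 differed by -0.54 in row 1 and -0.098 in row 2. Leaving out any 1 array kept 23 to 27 of the 31 members below 0, with medians from -0.16 to -0.077. Kupffer cell markers were below 0 in 8 of 11 (median -0.067), sinusoidal endothelial markers in 3 of 4 (median -0.19), and hepatocyte markers above 0 in 6 of 8 (median 0.073). Summed Kupffer markers ran from 14.1 to 14.3 in M and from 13.7 to 14.4 in MM, and erythroid markers were above 0 in 3 of 3 (median 0.37). The part of these cells in the module's values was not tested.

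Whether fostering had a different effect in exposed and control litters was tested by the difference of those 2 differences. No member passed. limma called 0 members and 0 of all features (0%), with 1 member (Dhx58) and 184 of all features at an unadjusted p under 0.05, and the smallest adjusted p over all features was 0.888. Of 31 members 23 were below 0 with a median of -0.094, against 47.9% of all features and a median of 0.0082. The class II genes were below 0 in 5 of 5 (median -0.20) and the antiviral genes in 9 of 13 (median -0.11), while transcription and signalling genes were evenly divided. Within slide row 1 all class II genes were below 0, from -0.20 for RT1-DMa to -0.68 for RT1-Bb. Within row 2 they were divided, at -0.064 for RT1-DMb, -0.23 for RT1-Da, 0.041 for RT1-DMa, 0.13 for RT1-Bb and 0.18 for Cd74.

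Dhx58 had an interaction of -0.29 ± 0.12 (SE, limma adjusted p = 1), Psmb8 one of -0.36 ± 0.20 and Bst2 one of -0.42 ± 0.26. The Psmb8 value became -0.24 without C replicate 11, and the Bst2 value -0.28 without M replicate 5. The module's median was -0.17 in slide row 1, with 27 of 31 below 0, and -0.015 in row 2, with 16 of 31 below. Kupffer cell markers were below 0 in 9 of 11 (median -0.13) and endothelial markers in 4 of 4 (median -0.40), and their part was not tested.

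**Figure D2:**
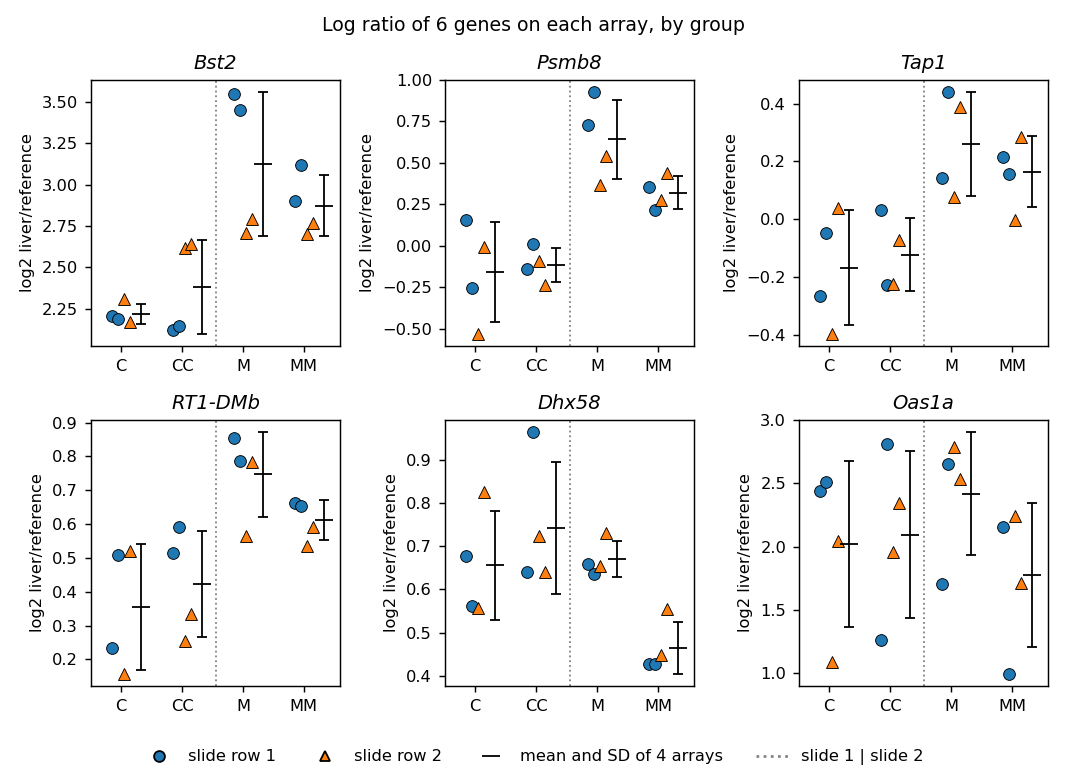
Log ratio (log2 liver over reference) of Bst2, Psmb8, Tap1, RT1-DMb, Dhx58 and Oas1a on each array by group, with circles for slide row 1, triangles for row 2, bars for the mean and SD of 4 arrays and a dotted line between slides 1 and 2. The M values of Bst2, Psmb8, Tap1 and RT1-DMb lie above all C values, the MM values of Dhx58 lie below all M values, and Oas1a overlaps in all comparisons.

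Exposure was compared by M minus C and MM minus CC, both across slides. In M minus C, 4 members rose in log ratio: the class I processing genes Psmb8 and Tap1, the antiviral gene Bst2 and the class II loading gene RT1-DMb. These are 4 of 31 members, against 456 of all 11092 features called (4.11%). Of 31 members 18 were above 0 and 13 below, with a median of 0.025, where 56.5% of all features were below 0 with a median of -0.029. In 7 members the M and C values did not overlap (Bst2, Psmb8, Tap1, Tap2, RT1-DMa, RT1-DMb and Ifi35), as in 10.9% of all features. The median moved to 0.11 without C replicate 10, to -0.035 without C replicate 11 and to -0.021 without M replicate 6. Class II genes were above 0 in 5 of 5 (median 0.17), though RT1-Bb stood at 0.29 within slide row 1 and -0.24 within row 2. Kupffer cell markers were above 0 in 6 of 11 in log ratio (median 0.015) and in 9 of 11 in the liver channel (median 0.13), and their summed liver level ran from 13.6 to 14.5 in C and from 14.1 to 14.3 in M. The part of these cells in the class II values was not tested.

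Bst2 stood at 2.21, 2.19, 2.31 and 2.17 in C and at 3.55, 3.45, 2.71 and 2.80 in M. All M arrays lay above all C arrays, and the 2 highest were those of slide row 1. The group means were 2.22 ± 0.061 in C and 3.13 ± 0.44 in M (SD, n = 4), a difference of 0.91 ± 0.18 (SE, limma adjusted p = 0.00914) or 1.88-fold. It was 1.30 within row 1 and 0.51 within row 2.

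Psmb8 stood at 0.16, -0.25, -0.53 and -0.01 in C and at 0.73, 0.93, 0.37 and 0.54 in M. The lowest M array was above the highest C array, and the difference was 0.80 ± 0.14 (limma adjusted p = 0.00395), or 1.74-fold. Both calls stood in all 16 omissions of 1 array, with differences from 0.77 to 1.05 for Bst2 and from 0.68 to 0.91 for Psmb8.

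Tap1 stood at -0.26, -0.05, -0.40 and 0.04 in C and at 0.14, 0.44, 0.08 and 0.39 in M, without overlap, and the difference was 0.43 ± 0.12 (adjusted p = 0.0474 in limma). RT1-DMb stood at 0.23, 0.51, 0.16 and 0.52 in C and at 0.85, 0.79, 0.56 and 0.78 in M, also without overlap, and the difference was 0.39 ± 0.10 (adjusted p = 0.0458 in limma). Both calls lay near the threshold. Without a CC or MM array the differences stayed at 0.43 for Tap1 and 0.39 for RT1-DMb. Those arrays enter M minus C only through the shared estimate of spread. The Tap1 call was lost in 12 of 16 omissions, those of C replicates 9, 10 and 11, CC replicates 2, 3 and 4, M replicates 5, 6 and 8, and MM replicates 1, 2 and 4. The RT1-DMb call was lost in 10 of 16, those of C replicates 9 and 11, CC replicates 1 and 4, M replicates 5, 6 and 8, and MM replicates 1, 2 and 4. Tap2, the partner of Tap1, had M values of -0.29, -0.39, -0.43 and -0.56 and a difference of 0.34 ± 0.098 that did not pass (adjusted p = 0.0641 in limma).

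The channels differed in what they contributed. In the liver channel alone limma called 0 members and 0.0811% of all features, with 5 members and 931 of all features at an unadjusted p under 0.05. The liver difference was 0.77 for Bst2 (adjusted p = 0.153 in limma), 0.38 for Psmb8, 0.13 for Tap1 and 0.20 for RT1-DMb. The reference channel, which held the same RNA on every array, differed by -0.14, -0.42, -0.29 and -0.19 for these genes in that order. For Psmb8 and Tap1 the reference difference was larger in size than the liver difference. The other members without overlap were Tap2, RT1-DMa and Ifi35. Mean liver levels (log2) of Tap2 were 9.82 in C and 9.90 in M, and reference levels 10.58 and 10.31. For RT1-DMa they were 7.90 and 7.99 in liver and 7.93 and 7.74 in the reference. For Ifi35 they were 8.67 and 8.81 in liver and 7.44 and 7.35 in the reference.

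Across all arrays the reference signal of 25 of 31 members differed between slide 2 and slide 1, against 61.2% of all features, from -0.40 for Psmb8 to 0.38 for B2m. B2m stood at 2.11, 2.20, 1.90 and 1.98 in C, at 2.11, 2.22, 1.97 and 1.90 in CC, at 1.87, 1.93, 1.96 and 1.90 in M and at 1.97, 1.81, 1.99 and 1.89 in MM. All groups overlapped, and its M minus C log ratio of -0.14 combined a liver difference of 0.23 with a reference difference of 0.37. In the liver channel 25 of 31 members were above 0 in M minus C, with a median of 0.13 against -0.026 over all features. Hepatocyte markers were below 0 in 8 of 8 in log ratio (median -0.21), with 4 of 8 below in the liver channel, and erythroid markers in 3 of 3 (median -0.61).

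**Figure D3:**
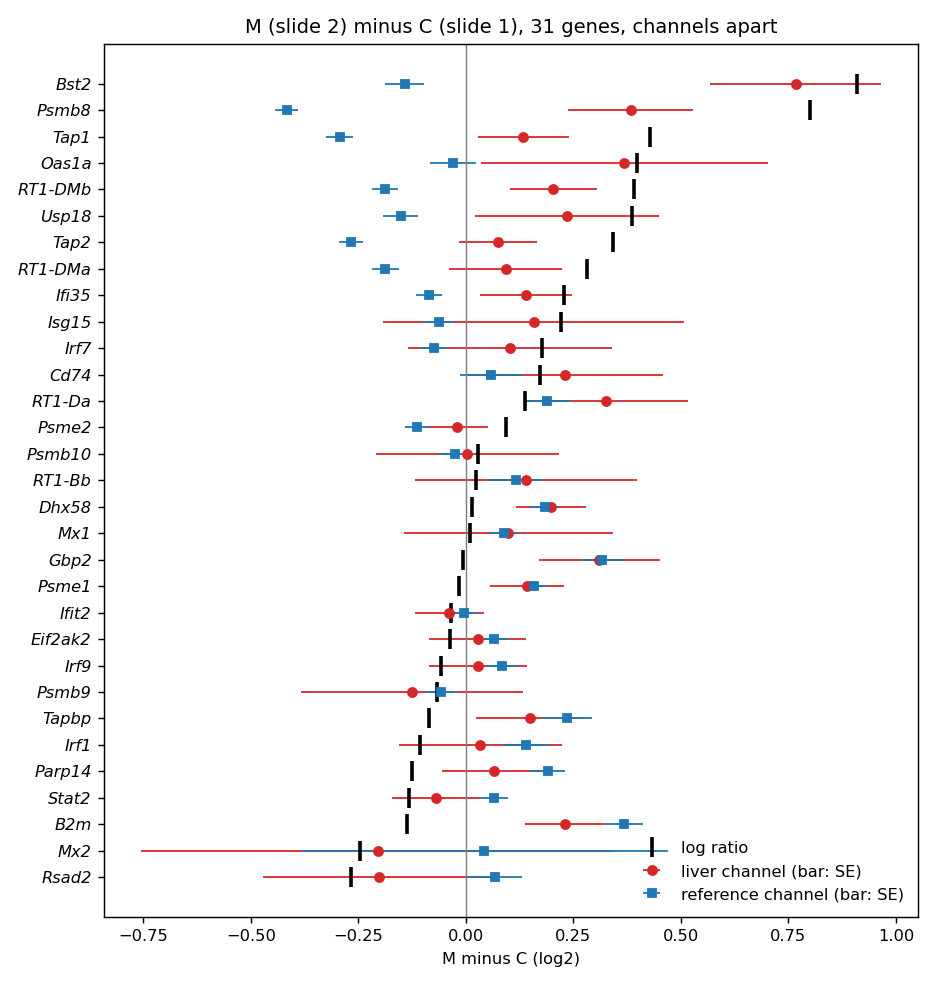
M minus C (log2) of the 31 tested members, ordered by the log ratio difference (black ticks), with the liver channel (red circles) and reference channel (blue squares) apart and bars for the SE. Psmb8 and Tap1 lie farther from 0 in the reference than in the liver channel, and Bst2 farther in the liver channel.

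In MM minus CC, limma called 0 members and 0.902% of all features, and 4 members (1235 of all features) had an unadjusted p under 0.05. Of 31 members 18 were below 0 with a median of -0.077, against 56.1% of all features and a median of -0.025. Without CC replicate 2 the count below 0 was 11 and the median 0.056. Bst2 stood at 2.12, 2.15, 2.62 and 2.64 in CC and at 2.90, 3.12, 2.70 and 2.77 in MM, all above CC, and the difference was 0.49 ± 0.18 (adjusted p = 0.281 in limma). It was 0.88 within row 1 and 0.11 within row 2. Psmb8 stood at -0.14, 0.01, -0.09 and -0.24 in CC and differed by 0.44 ± 0.14 (adjusted p = 0.200 in limma), where liver differed by 0.059 and the reference by -0.38. Dhx58 stood at 0.64, 0.96, 0.72 and 0.64 in CC, all above MM, and differed by -0.28 ± 0.087 (adjusted p = 0.189 in limma). Its mean liver level (log2) was 7.17 in CC and 7.08 in MM, and its reference level 6.43 and 6.61. For Bst2 the liver level was 13.47 in CC and 13.74 in MM, and the reference level 11.09 and 10.87.

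Bst2, Psmb8 and Dhx58 were the 3 members without overlap, as were 6.60% of all features. Tap1 stood at 0.03, -0.23, -0.22 and -0.07 in CC and at 0.22, 0.16, -0.00 and 0.29 in MM, which overlapped, and RT1-DMb at 0.51, 0.59, 0.25 and 0.33 in CC and at 0.66, 0.65, 0.54 and 0.59 in MM. Tap2 ran at -0.62, -0.52, -0.35 and -0.30 in MM. In the liver channel alone 0 members and 0.162% of all features were called by limma, with 1 member and 708 of all features at an unadjusted p under 0.05. Kupffer cell markers were below 0 in 10 of 11 in log ratio (median -0.21). Their summed liver level ran from 13.8 to 14.4 in CC and from 13.7 to 14.4 in MM, and their part was not tested. M minus C and MM minus CC share no samples, but both set slide 2 against slide 1.

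Some members differed between slide rows, in a smaller share than over all features. With group in the fit, 7 of 31 members differed between slide row 2 and row 1, against 42.4% of all features. With median centring in place of loess 3 members were called (Rsad2, Isg15 and Psmb10), against 23.2% of all features. With the scanner's own log ratio limma called 0 members and 0 of all features, and 2 members and 997 of all features had an unadjusted p under 0.05. Antiviral genes Rsad2, Isg15 and Ifit2 and the immunoproteasome gene Psmb10 were lower in row 2, and Psmb9, Cd74 and Mx2 were higher. Rsad2 differed by -0.67 ± 0.16 (SE, limma adjusted p = 0.00305), and in the liver channel the difference was -0.56. Row held different rats as well as a different place on the slide, so these cannot be told apart.

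Rsad2 stood at 2.11, 2.14, 1.28, 2.18, 1.49, 1.78, 1.50 and 1.88 on the row 1 arrays (C 9, C 10, CC 1, CC 2, M 5, M 6, MM 1, MM 2) and at 0.80, 1.57, 1.18, 1.28, 0.95, 1.31, 0.52 and 1.40 on the row 2 arrays (C 11, C 12, CC 3, CC 4, M 7, M 8, MM 3, MM 4). The highest row 2 array lay above CC 1, M 5 and MM 1 of row 1 and below the others. In the same order Isg15 stood at 3.43, 3.06, 2.38, 3.27, 2.73, 3.67, 2.58 and 2.45 in row 1 and at 1.61, 2.35, 2.40, 2.47, 2.33, 2.60, 2.50 and 2.45 in row 2, a difference of -0.61 ± 0.19. C 11 was lowest and M 6 highest, 4.16-fold apart.

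Psmb10 stood at 0.79, 0.66, 0.63, 0.70, 0.87, 0.91, 0.61 and 0.61 in row 1 and at -0.03, 0.75, 0.45, 0.28, 0.07, 0.44, 0.26 and 0.44 in row 2, a difference of -0.39 ± 0.097. C 12 was the 1 array of row 2 that reached the row 1 values. Ifit2 stood at 0.55, 0.48, 0.40, 0.58, 0.61, 0.36, 0.32 and 0.36 in row 1 and at 0.26, 0.41, 0.34, 0.38, 0.32, 0.28, 0.25 and 0.18 in row 2. Its difference of -0.15 ± 0.050 passed (limma adjusted p = 0.0224) but not without C replicate 11 (adjusted p = 0.0504) or M replicate 5 (adjusted p = 0.0517).

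Psmb9, the third immunoproteasome subunit, went the other way, at 0.65, 0.56, 0.12, 0.76, 0.45, 0.51, 0.39 and 0.06 in row 1 and 0.81, 0.82, 0.94, 0.57, 0.90, 0.72, 1.46 and 0.82 in row 2, a difference of 0.44 ± 0.12 that turned to -0.055 with the scanner's log ratio. In row 1 only C 9 and CC 2 reached the range of row 2. Cd74 stood at 3.66, 4.39, 4.11, 4.39, 4.44, 4.20, 4.07 and 4.03 in row 1 and at 4.53, 4.50, 4.40, 4.29, 4.66, 4.47, 4.67 and 4.49 in row 2, a difference of 0.34 ± 0.098. Mx2 stood at 1.10, 1.22, 0.77, 1.28, 0.70, 0.87, 0.98 and 0.53 in row 1 and at 1.32, 1.32, 1.26, 1.15, 1.15, 1.26, 1.44 and 1.11 in row 2, a difference of 0.32 ± 0.091. On MM replicate 2 both channels of the Mx2 probe were dim, with a liver level of 8.96 against 11.8 to 12.6 on the other arrays.

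**Figure D4:**
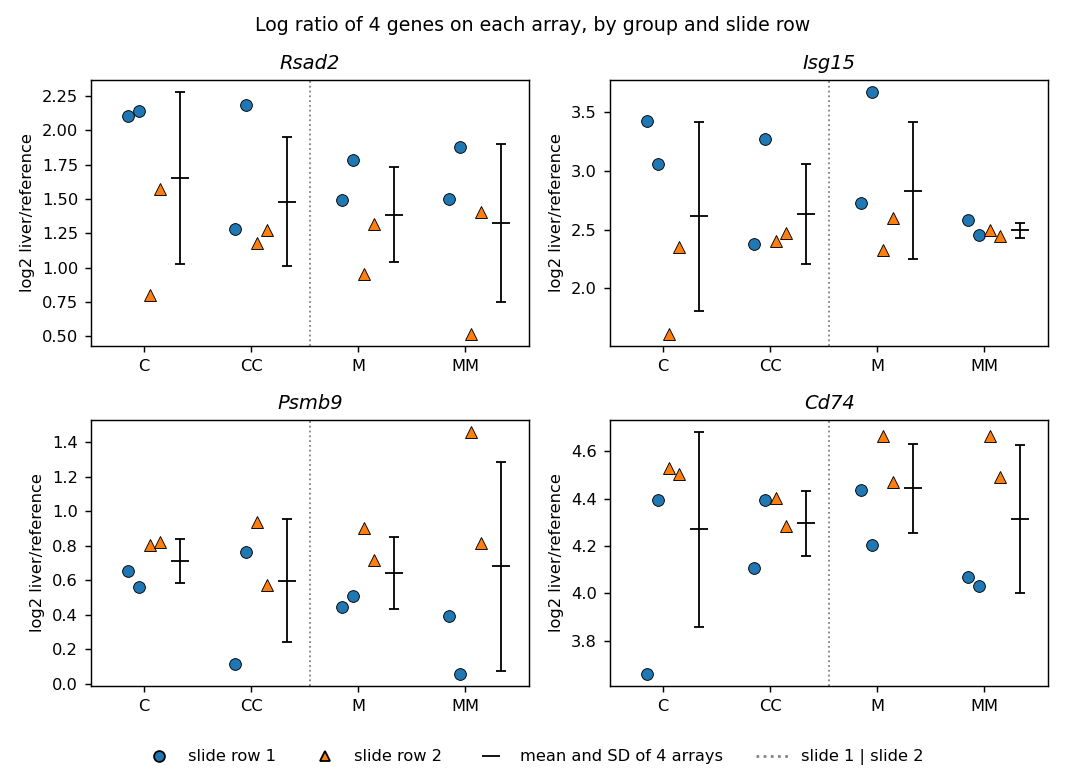
Log ratio (log2 liver over reference) of Rsad2, Isg15, Psmb9 and Cd74 on each array by group, with circles for slide row 1, triangles for row 2, bars for the mean and SD of 4 arrays and a dotted line between slides 1 and 2. The 2 row 2 arrays of a group lie lower than its row 1 arrays in Rsad2 and Isg15 and higher in Psmb9 and Cd74, except that the rows overlap in CC for Isg15, Psmb9 and Cd74 and in MM for Isg15.

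Other members given array by array overlapped in every comparison. Irf1 stood at -0.45, 0.15, 0.14 and -0.03 in C, -0.43, -0.09, -0.07 and -0.47 in CC, -0.05, -0.42, -0.20 and 0.05 in M and -0.47, -0.53, -0.12 and 0.13 in MM. Irf9 stood at 1.01, 1.05, 0.67 and 1.06 in C, 0.57, 1.14, 0.66 and 0.82 in CC, 0.80, 1.01, 0.80 and 0.94 in M and 0.57, 0.69, 0.52 and 0.97 in MM. C replicate 11 stood below the rest of its group for Irf9.

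Stat2, a transactivating factor of the type I response, stood at 1.19, 1.09, 1.22 and 1.01 in C, 0.78, 1.35, 0.99 and 1.00 in CC, 0.87, 0.87, 1.09 and 1.15 in M and 1.05, 1.00, 1.12 and 0.96 in MM. RT1-Da stood at 2.99, 3.77, 2.93 and 3.45 in C, 3.45, 3.83, 3.21 and 3.28 in CC, 3.93, 3.22, 3.18 and 3.37 in M and 3.14, 3.27, 2.98 and 3.22 in MM. Oas1a stood at 2.44, 2.51, 1.09 and 2.04 in C and at 1.26, 2.81, 1.96 and 2.35 in CC. RT1-Da was highest on M replicate 5 and Oas1a lowest on MM replicate 2 over all 16 arrays.

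Several antiviral genes were among the most variable features between pools of a group. The median within-group SD was 0.26 over antiviral genes, 0.16 over class I genes and 0.28 over class II genes, against 0.18 over all features, while the reference channel's median SD was 0.051 over the members. Oas1a had an SD of 0.60, with 99.1% of features smaller, followed by Isg15 at 0.54 (98.5%), Rsad2 at 0.52 (98.1%), Mx1 at 0.40 (94.0%) and Irf7 at 0.37 (92.1%). These SDs were taken about group means, so they include any difference between slide rows, such as those of Isg15 and Rsad2. At the other end stood the proteasome activator subunits Psme2 at 0.079 and Psme1 at 0.092, Dhx58 at 0.11 and B2m at 0.11. CC replicate 2 was the highest of its group for 20 of 31 members and for 19.5% of all features, and C replicate 11 the lowest for 19 and for 31.9%.

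The levels of several antiviral genes followed that of Irf7 from pool to pool, though no correlation passed the adjustment over all features. Irf7 stood at 1.38, 1.57, 0.53 and 0.94 in C, 0.88, 1.54, 0.84 and 1.21 in CC, 1.02, 1.88, 1.04 and 1.18 in M and 1.25, 0.66, 1.17 and 1.05 in MM. Mx1 stood at 1.47, 2.13, 0.89 and 1.32 in C, 1.16, 1.90, 1.03 and 1.33 in CC, 1.20, 1.76, 1.35 and 1.55 in M and 1.40, 0.71, 1.60 and 1.42 in MM. In both genes C replicate 11 was lowest in C, CC replicate 2 highest in CC, M replicate 6 highest in M and MM replicate 2 lowest in MM.

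After subtraction of group means (n = 16 arrays), Irf7 correlated with Mx1 at Pearson's r = 0.89 and Spearman's rho = 0.91 (permutation p = 6e-05 and 4e-05 with arrays permuted within groups, Benjamini-Hochberg adjusted p = 0.443 for both over 11085 features). With Isg15 r was 0.88 and rho 0.79 (permutation p = 0.00188 and 0.00235, adjusted 0.792 and 0.883). With Usp18, which removes Isg15 from proteins, r was 0.80 and rho 0.79 (permutation p = 0.00250 and 0.00210, with those same adjusted values). With Oas1a r was 0.79 and rho 0.81 (permutation p = 0.00130 and 0.00110, adjusted likewise). None of the 11085 features passed the adjustment. With 100000 permutations a feature alone at the smallest possible p (1e-05) would have had an adjusted p of 0.111, so no single correlation could have passed on its own, whatever its size. In these data an unadjusted p under 0.05 was reached by 8 of 30 members and by 437 features (3.94%).

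Without M replicate 6 and C replicate 11, the arrays farthest from the Irf7 median, r was 0.90 for Mx1, 0.79 for Isg15, 0.82 for Usp18 and 0.79 for Oas1a. Within slide row 1 these r values were 0.90, 0.86, 0.88 and 0.91, and within row 2 they were 0.92, 0.91, 0.76 and 0.81. In the liver channel they were 0.90, 0.91, 0.82 and 0.77, and in the reference channel 0.062, -0.069, 0.20 and 0.016. The arrays share the reference RNA and their slide.

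Over the members, 25 of 30 had a positive r with Irf7, with a median of 0.33 against -0.013 over all features. An r of at least 0.7 was found for 4 of 30 members and for 39 features (0.352%), and Mx1 and Isg15 had the highest r of all features. Usp18 and Oas1a were at places 7 and 8, and the first 20 also held the oligoadenylate synthetase gene Oas1k (place 10) and Lgals9 (place 16) of the wider pathway list. The remaining 14 of the 20 were on neither list, among them Ms4a6bl1, M74439, Slc25a39 and Dguok at places 3 to 6. Class II genes were divided, at 0.37 for RT1-DMb and 0.20 for RT1-Da but -0.27 for Cd74, -0.31 for RT1-DMa and -0.43 for RT1-Bb. Bst2 stood at -0.028 and Irf1 at -0.18.

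**Figure D5:**
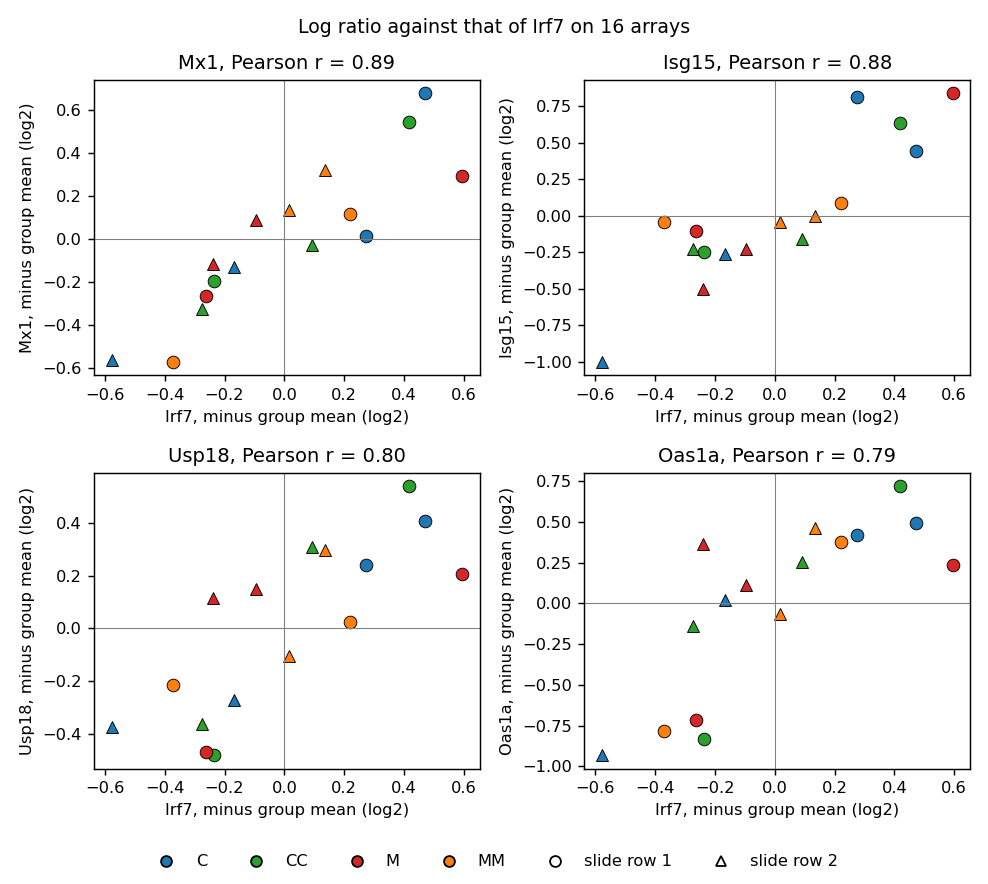
Log ratio of Mx1, Isg15, Usp18 and Oas1a against that of Irf7 on the 16 arrays, each minus its group mean (log2), coloured by group, with circles for slide row 1 and triangles for row 2. The points rise together, with Pearson's r from 0.79 to 0.89, and C replicate 11 has the lowest Irf7 value and M replicate 6 the highest.

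Other genes of the pathway were taken from a list of receptors, sensors, further induced genes and presentation genes, of which 61 were tested. In CC minus C 37 of 61 were below 0 (median -0.027), in MM minus M 49 (median -0.063) and in the interaction 42 (median -0.070), with 0 called by limma in each. In M minus C 4 were called (6.56%, against 4.11% of all features). The nuclease gene Trex1 rose by 0.47 (adjusted p = 0.0320 in limma) and Shisa5 by 0.51 (adjusted p = 0.0166). The chaperones of class I assembly Canx and Calr were at -0.69 and -2.75 (adjusted p = 0.00243 and 0.00021 in limma), and Calr was at -2.53 in MM minus CC. In M minus C the liver channel differed by 0.26 for Trex1, 0.48 for Shisa5, 0.053 for Canx and -0.74 for Calr, none of them called, and the reference channel by -0.21, -0.029, 0.75 and 2.01. For Canx and Calr the reference difference was thus larger in size than that of the liver. The constitutive proteasome subunits that the inducible ones replace did not pass in M minus C, at -0.16 for Psmb5, 0.10 for Psmb6 and 0.016 for Psmb7. Between slide rows 22 of the 61 were called (36.1%, against 42.4% of all features), and the reference channel differed between slides for 38 (62.3%, against 61.2%).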

How the data were processed

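Liver RNA of 16 pools was measured on 2-colour Agilent arrays (design build rn4). The deposited scanner files, per the file headers made with Agilent Feature Extraction 11.0.1.1, hold foreground and background intensity per spot and a log10 ratio of red over green. The deposited value table holds log2 ratios, with a centring not stated, and it was used as an alternative. The plan named mean signals, while the files hold medians, which were used. With limma 3.58.1 in R 4.3.3, intensities were background-corrected (normexp, offset 50) and loess-normalized within arrays. Control spots had weight 0, and outlier spots (732 to 1138 per array) were left out. Each name was read by its brightest probe and tested where liver was well above background on 3 or more of 4 arrays of a group. Single-channel levels were taken after Aquantile scaling.

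One fit of the 4 group means on 16 arrays (12 residual degrees of freedom) gave each comparison, with Benjamini-Hochberg adjustment over 11092 features, and the script was tested on simulated data. The row comparison added slide row. The members and lists were chosen with earlier results of these data known. Members were given array by array if called, if among the 3 lowest p of CC minus C, MM minus M or the interaction, or if on a list of genes of interest. The Irf7 correlations, with 100000 permutations, were added after the data were seen. CC and MM arrays of the same number deviated together (correlations 0.553, 0.157, 0.582 and 0.192). The main fit did not pair them, and an alternative took the numbers as a replicate block. Same-numbered arrays also share a slide row, so these correlations cannot tell a pairing from the row. No 2 arrays held identical values.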

Additional observations from a re-analysis of the deposited data

Results flagged for a closer look

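Within groups of 4 arrays, 10 of 124 gene and group pairs held 1 array set apart from the others by Dixon's 95% criterion, and chance gives about 1 in 20 groups. Of these arrays CC replicate 2 and C replicate 11 each appear for a pair of genes. On CC replicate 2 the log ratio was 3.27 for Isg15, where the other CC arrays ran from 2.38 to 2.47, and 2.18 for Rsad2, where the others ran from 1.18 to 1.28. On C replicate 11 it was 0.67 for Irf9 (others 1.01 to 1.06) and -0.029 for Psmb10 (others 0.66 to 0.79). Cd74 was 3.66 on C replicate 9 (others 4.39 to 4.53), Usp18 was 0.73 on M replicate 5 (others 1.31 to 1.40) and Ifi35 was 1.62 on M replicate 6 (others 1.40 to 1.42). Psme1 was 0.73 on CC replicate 4 (others 0.93 to 0.94), Psme2 was 0.46 on MM replicate 3 (others 0.27 to 0.29) and Dhx58 was 0.55 on MM replicate 4 (others 0.43 to 0.45).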

How the results depend on the processing

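The numbers of members called in CC minus C, MM minus M and the interaction stayed at 0 in the alternatives run. In M minus C the number called was 4, but 0 in the liver channel alone and 2 without a brightness filter, and it ran from 2 to 4 with 1 array left out. The module's median in M minus C, 0.025, became 0.129 with median centring and 0.134 in the liver channel, and ran from -0.035 to 0.115 with 1 array left out. In MM minus CC the number called was 1 with median centring (Tap1, 0.47), and the median became 0.020 with that centring, -0.20 in slide row 1 and 0.047 in row 2, and ran from -0.099 to 0.056 with 1 array left out. In MM minus M the median was -0.23 in row 1 and -0.0076 in row 2. Between slide rows 7 members were called, 3 with median centring and 0 with the scanner's own log ratio, where the Psmb9 difference turned to -0.055. The causes of these changes were not tested. With CC and MM numbers as a replicate block, 0 members were called in MM minus CC, the median was -0.077, and no other call changed. The liver-channel Irf7 correlations were chosen after seeing the data. The number of arrays, and a reference signal not well above background on most arrays for Rsad2, limit the precision.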

Other observations

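A second RT1-Bb probe, not used above because it was dimmer, reached the detection level on 2 C, 0 CC, 4 M and 2 MM arrays. Its log ratio was 1.24, 0.14, -0.00 and 1.48 in C, 0.04, -0.02, 0.02 and 0.09 in CC, 2.34, 1.84, 1.46 and 3.12 in M and 2.57, -0.04, 0.15 and 2.02 in MM. The values fell into arrays near 0 and arrays above 1, while the brighter RT1-Bb probe ran from 2.77 to 3.96 on the same arrays. The MM arrays with a high value of the dimmer probe, replicates 1 and 4, read 2.77 and 3.39 on the brighter one, and replicates 2 and 3 read 3.72 and 3.80. M minus C was 1.48 by the dimmer probe and 0.025 by the brighter one. A second Eif2ak2 probe, detected on all 16 arrays, had the opposite sign to the probe used in every comparison. It gave 0.12 against -0.099 in CC minus C and -0.20 against 0.024 in MM minus M. Second probes of Parp14 and Usp18 kept the sign, except Usp18 in MM minus CC (0.012 against -0.11). Parp14 differed in size in M minus C, at -0.45 against -0.12. The second Irf1 probe was detected on 0 arrays.

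On MM replicate 2 the Mx2 probe was dim in both channels, at 8.96 in liver and 8.43 in the reference, where the other arrays ran from 11.8 to 12.6 in liver and up to 11.2 in the reference.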
